A study of Mus musculus with 3 samples.

Results

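The Na+/K+-ATPase, or sodium pump, is built from a catalytic α subunit, a β subunit that carries it to the plasma membrane, and often a small FXYD protein that tunes its affinity for ions. The γ subunit Fxyd2 is best known from the nephron, where it accompanies the pump in the basolateral membrane of tubule cells. In leukocytes the pump keeps the sodium and potassium gradients on which cell volume, membrane potential and coupled transport depend. Described here are 5 genes of this system among the 32886 gene columns of the count table: the FXYD genes Fxyd2, Fxyd5 and Fxyd6 and the β subunit genes Atp1b1 and Atp1b3. They were chosen by measured values of the same table, namely their levels across the clusters of cells and the level of Fxyd2 in resident macrophages of the medulla. Those values are therefore given as a description, with no test.

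The data are UMI counts of 20266 single cells. The cells were immune cells, sorted for CD45 from 3 compartments, namely the cortex, the outer part of the medulla (OM) and its inner part (IM), of untreated wild-type male C57BL/6J mice aged 10 weeks. All groups share genotype, sex and age, and differ in the compartment. Each compartment was profiled at 3 facilities (Aachen, Bonn and Hamburg), which gives 9 libraries of 621 to 3677 cells and 2122809 to 15267126 UMIs, with the facility as replicate (n = 3 per compartment). Nothing in the labels says how many animals stand behind a library, so the spread over facilities holds technical as well as biological differences. The median depth per cell was 887 UMIs in the Aachen dataset, 3290.5 in Bonn and 2943.9 in Hamburg. The Bonn and Aachen values are whole numbers, whereas 0.118% of the nonzero Hamburg values are whole. Of 20042 distinct barcodes, 219 occurred in more than 1 library. The barcodes carried 6 suffixes in Aachen, 3 in Bonn and 1 in Hamburg, and the 3 Hamburg compartments shared 0 barcodes, so whether these were separate libraries or parts of 1 is not shown by the barcodes. The markers of resident macrophages, among them C1qa, C1qb, C1qc, Adgre1 and Csf1r, together reached 22349.1 and 22420.8 CPM (UMIs scaled to the total of the same cells) in resident macrophages of the Aachen cortex and OM. In T cells of those libraries they reached 881 and 1871.0 CPM.

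Of the 5 genes, 4 were detected. Fxyd5, which encodes dysadherin, was by far the most widespread, with 52490 UMIs in 64.6% of all cells. Atp1b3, the gene of the β3 subunit, had 8322.1 UMIs in 26.2% of cells. Fxyd2 had 7223.4 UMIs in 8.46% of cells, with up to 216 UMIs in 1 cell. Atp1b1, the gene of the β1 subunit that most epithelia use, had 2486.0 UMIs in 6.81% of cells. Fxyd6 had 1 cell with a value of 0.9698, a Macrophage_1 cell of the Hamburg IM, which lies under the limit of 3 counts used here as the floor. Fxyd6 and Fxyd2 are direct neighbours on chromosome 9 on the same strand. Fxyd6 spans chr9:45370185-45396159 and Fxyd2 chr9:45399669-45410278 (GRCm38), with 3509 bases and 0 protein-coding genes between them. Fxyd5 lies at chr7:31032722-31042481, Atp1b1 at chr1:164437109-164458355 and Atp1b3 at chr9:96332655-96364442.

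The upstream sequences of the β genes are shown because these genes were found in different cells, as described further on. Promoter entries of RefSeq (GRCm38.p6) matched 4 of the 5 members, all but Fxyd2. The 250 bases before the start are printed on the gene's strand, 5′ to 3′, with matches on either strand in capitals, namely of the TATA-like motif TATATA, the motif CCAAT that nuclear factor Y is known to bind, and the GC box GGGCGG. The first lies at chr1:164458356-164458605 on the minus strand and the second at chr9:96364432-96364681 on the minus strand.
Atp1b1: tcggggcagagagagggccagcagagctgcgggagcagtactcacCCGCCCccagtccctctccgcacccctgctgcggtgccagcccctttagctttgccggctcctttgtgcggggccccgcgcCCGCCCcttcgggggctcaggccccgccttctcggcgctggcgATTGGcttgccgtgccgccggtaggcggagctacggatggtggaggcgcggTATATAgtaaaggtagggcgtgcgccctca
Atp1b3: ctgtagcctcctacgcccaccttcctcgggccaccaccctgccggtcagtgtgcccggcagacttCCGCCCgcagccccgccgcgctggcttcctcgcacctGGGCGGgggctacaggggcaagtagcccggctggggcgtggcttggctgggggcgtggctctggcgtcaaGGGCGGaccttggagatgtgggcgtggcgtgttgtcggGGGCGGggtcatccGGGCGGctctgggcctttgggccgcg
Atp1b1 held TATATA once, 30 bases before the start, CCAAT once and GGGCGG at 2 places. Atp1b3 held GGGCGG at 5 places and neither of the others. Over all 32851 promoter windows of this length, 5.25% held TATATA, 33.8% CCAAT and 32.7% GGGCGG. Both windows were rich in G and C (70.4 and 73.6%, against a median of 52.4%). A match is a run of letters and was not tied to any measurement here.

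**Figure D1:**
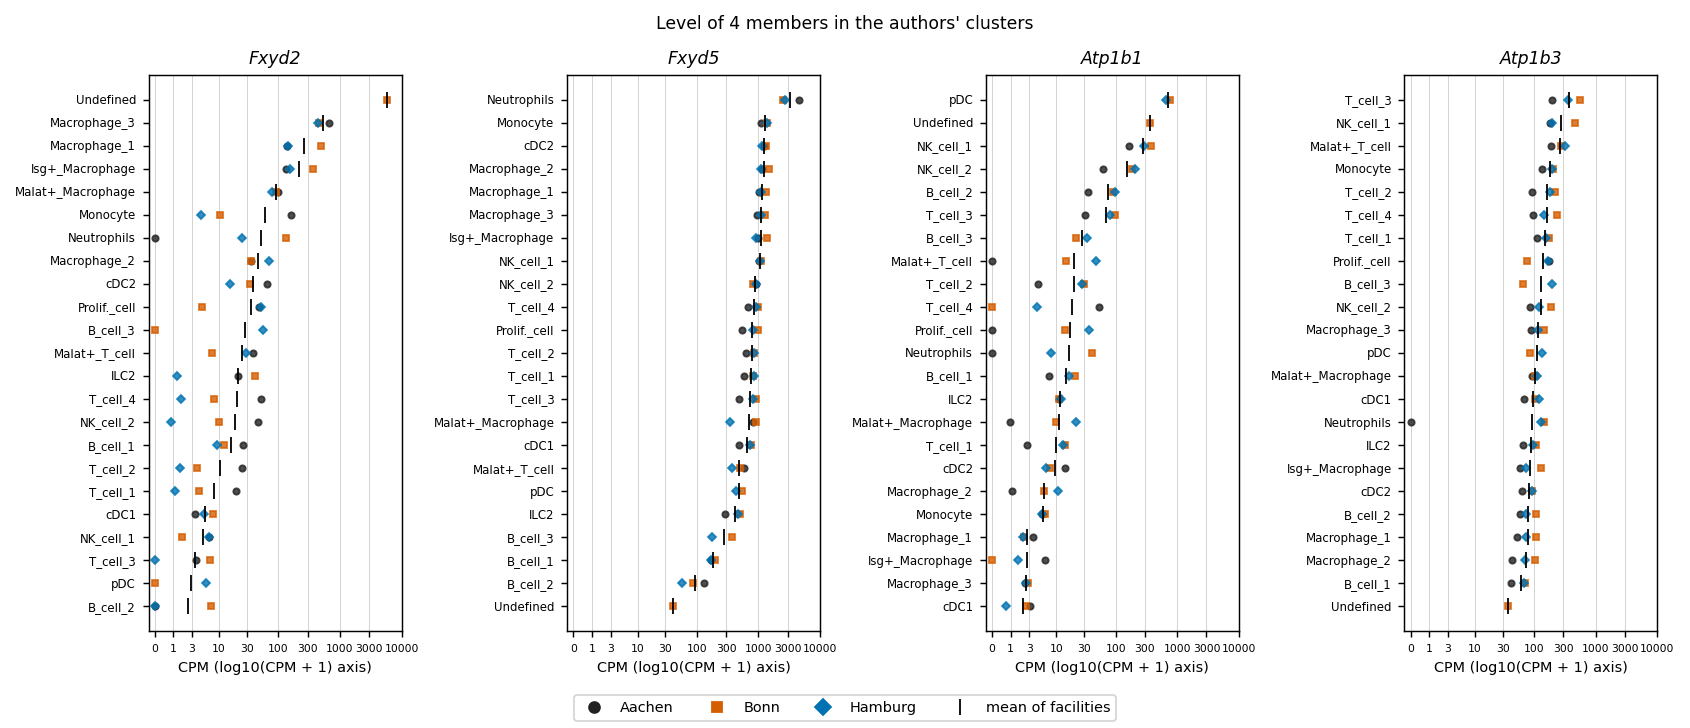
Level of Fxyd2, Fxyd5, Atp1b1 and Atp1b3 in the 23 clusters, as CPM on a log10(CPM + 1) axis; points are facilities (mean over compartments with at least 10 cells of the cluster) and vertical ticks their mean. Fxyd2 is highest in Undefined and Macrophage_3, Fxyd5 in neutrophils, Atp1b1 in pDC and Atp1b3 in T_cell_3.

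Levels per cluster are CPM over the cells of 1 cluster in 1 library, averaged over the compartments of a facility that hold at least 10 of its cells, and then over facilities. Among the 22 named clusters Fxyd2 was highest in Macrophage_3, with 677 CPM in Aachen, 452 in Bonn and 441 in Hamburg (523 ± 133 SD, n = 3). Macrophage_1 followed with 136, 496 and 142 CPM, and Isg+_Macrophage with 135, 370 and 152 CPM. The facility means of these 3 clusters overlap in part, since Macrophage_1 of Bonn lay above Macrophage_3 of Bonn and Hamburg. These means hold unlike compartments. In the Bonn cortex Macrophage_1 had 427 CPM in 24 cells and Macrophage_3 had 70.8 CPM in 38 cells. In the Bonn OM they had 464 and 493 CPM, and in the Bonn IM 598 and 791 CPM. In OM and IM of Aachen and Hamburg Macrophage_3 also lay above Macrophage_1, with 7 Macrophage_3 cells in the Aachen IM. Macrophage_2 was the macrophage cluster with the least Fxyd2, at 35.2, 35.2 and 70.0 CPM, below each of the other macrophage clusters in each facility. Monocytes differed between facilities, with 163 CPM in Aachen, 10.6 in Bonn and 4.69 in Hamburg. All T, NK and B cell clusters, cDC1 and pDC had means of 2.39 to 28.2 CPM, and their order is not resolved beyond the spread over facilities.

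The 69 cells that the authors left Undefined stood apart. Fxyd2 reached 4989.2 CPM in their 13 Aachen cells and 6668.1 CPM in their 43 Bonn cells, against 0 in their 13 Hamburg cells. The 28 markers of proximal tubule, thick ascending limb, distal convoluted tubule and collecting duct moved alongside, with 11809.0, 38977.1 and 36.4 CPM in total. Atp1b1 was 1507.5, 500 and 27.6 CPM there. These cells held 33.5% of all Fxyd2 UMIs and 8.78% of the Atp1b1 UMIs, and resident macrophages held 57.6% of the Fxyd2 UMIs.

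Per cell, Fxyd2 ranged from single UMIs to many in macrophages. Of 1418 Macrophage_3 cells, 43.3% had at least 1 UMI (exact 95% binomial interval 40.7 to 45.9%), and 114 cells had 5 or more. Of 1996 Macrophage_1 cells, 24.9% had a UMI (23.1 to 26.9%) and 113 cells had 5 or more. In Macrophage_2, 5.71% of 1680 cells had a UMI (4.65 to 6.93%) and 4 had 5 or more. As a level for cells in which the gene would not be sought, 1.65% of B_cell_1 and 0.8% of T_cell_1 cells had a UMI, although their median depth, 2404.0 and 2649.4 UMIs, was above the 1100.5 UMIs of Macrophage_3. Such intervals cover counting error only.

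Tubule RNA was followed beside the macrophage values, because Fxyd2 is a tubule gene. Among Macrophage_3 cells without a UMI of any of the 28 tubule markers, 40.0% still had an Fxyd2 UMI, compared with 58.1% of those with one. The latter were deeper, with a mean of 4321.0 against 1744.7 UMIs. In every library the ratio of resident macrophages to T and B cells was higher for Fxyd2 than for the tubule markers. It was 2.67 to 52.0 for Fxyd2 and 0.442 to 2.8 for the markers over the 9 libraries. The T and B cells of a library held only 6 to 51 Fxyd2 UMIs. The lowest ratio (Aachen cortex) and the highest (Bonn OM) each rest on 6 of them, so the size of the ratios is uncertain. Fxyd2 gave 0.308 to 7.17 UMIs per tubule UMI in macrophages and 0.0342 to 1.18 in T and B cells. In Undefined cells it gave 0.422 in Aachen and 0.171 in Bonn.

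**Figure D2:**
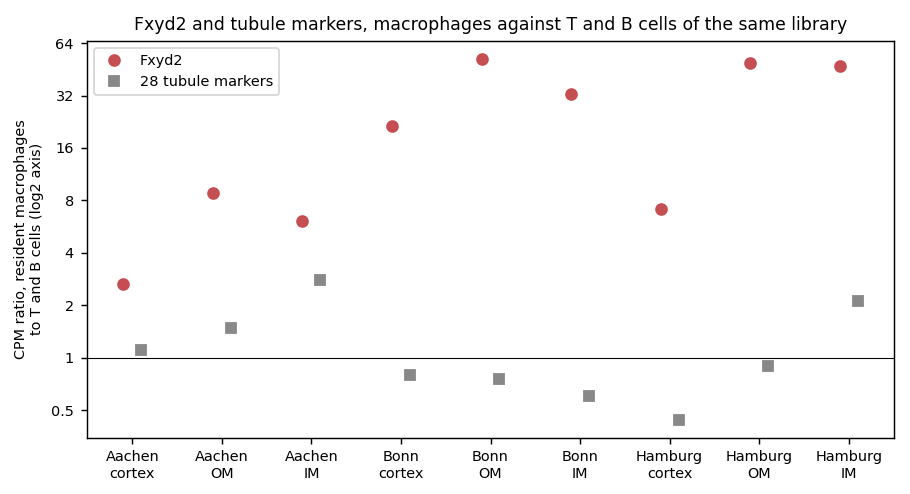
Ratio of CPM in resident macrophages to CPM in T and B cells of the same library (log2 axis) for Fxyd2 and for the summed 28 tubule markers; each point is 1 library. The Fxyd2 ratio lies above the marker ratio in all 9 libraries and is smallest, 2.67 against 1.11, in the Aachen cortex. T and B cells held 6 to 51 Fxyd2 UMIs per library.

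In resident macrophages (Macrophage_1, Macrophage_2, Macrophage_3 and Isg+_Macrophage, 5367 cells) Fxyd2 was low in the cortex of each facility and higher, but variable, in the medulla. In the cortex it was 21.1 CPM in Aachen, 24.8 in Bonn and 23.2 in Hamburg. In the OM it was 435, 325 and 262 CPM, and in the IM 45.7, 622 and 186 CPM. The cortex did not overlap with OM or IM, although the Aachen IM lay close to the cortex, at 31.0 UMIs in 596 cells. The OM values lay within the range of the IM values. In the same macrophages the tubule markers were 68.6, 27.1 and 18 CPM in the cortex of Aachen, Bonn and Hamburg, 61.9, 47.2 and 36.6 CPM in the OM and 92.9, 242 and 92.2 CPM in the IM, so that they were highest in the IM in each facility. In the Bonn IM 67.4% of macrophages had a tubule UMI, against 5.17 to 19.6% in the other libraries. In macrophages without a tubule UMI, Fxyd2 was 21.6, 24 and 21.3 CPM in the cortex, 429, 280 and 257 CPM in the OM and 42.1, 622 and 175 CPM in the IM. The fitted log2 fold change of the medulla (mean of OM and IM) against the cortex was 3.89 ± 0.57 (SE), and the differences of log2 CPM were 2.71, 4.15 and 3.15 in Aachen, Bonn and Hamburg. Over all genes tested in these cells, 1.24% were called in this contrast. Since it served to choose the gene, nothing is read from that share. Fewer macrophages with the RNA and less RNA per macrophage cannot be told apart in these sums.

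**Figure D3:**
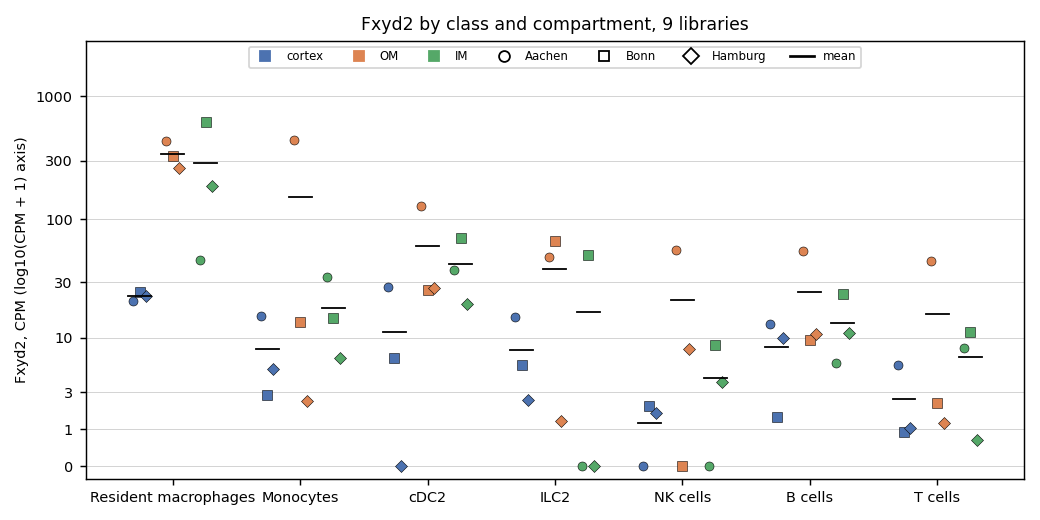
Fxyd2 in 7 classes by compartment, as CPM of the summed cells on a log10(CPM + 1) axis; each symbol is 1 library (shape, facility; colour, compartment) and bars are means of 3 facilities. Resident macrophages are at 21.1 to 24.8 CPM in the cortex and 45.7 to 622 CPM in the medulla, and the Aachen OM is the highest library in monocytes, cDC2, NK, B and T cells.

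Macrophages with many Fxyd2 UMIs were found in OM and IM of Bonn and Hamburg and in the OM of Aachen. Macrophages with 5 or more UMIs made up 25.7% of cells in the Bonn IM and 11.9% in the Bonn OM, 6.21% and 3.47% in OM and IM of Hamburg, and 0.717% in the shallower Aachen OM. The Aachen IM held 0 such cells of 596. The 3 cortex libraries held 2 such cells, both from Bonn, and 1 of them carried 39 of the 73 Fxyd2 UMIs of that library. With each cell thinned to 500 UMIs, the mean share of macrophages with an Fxyd2 UMI was 1.52% in cortex, 12.9% in OM and 10.5% in IM, against 6.29, 30.5 and 32.8% without thinning. The 2 barcode suffixes of the Aachen OM gave 409 and 481 CPM, those of its IM 26.7 and 64.4 CPM and those of its cortex 17.1 and 25.8 CPM. The low Aachen IM thus appeared in both.

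**Figure D4:**
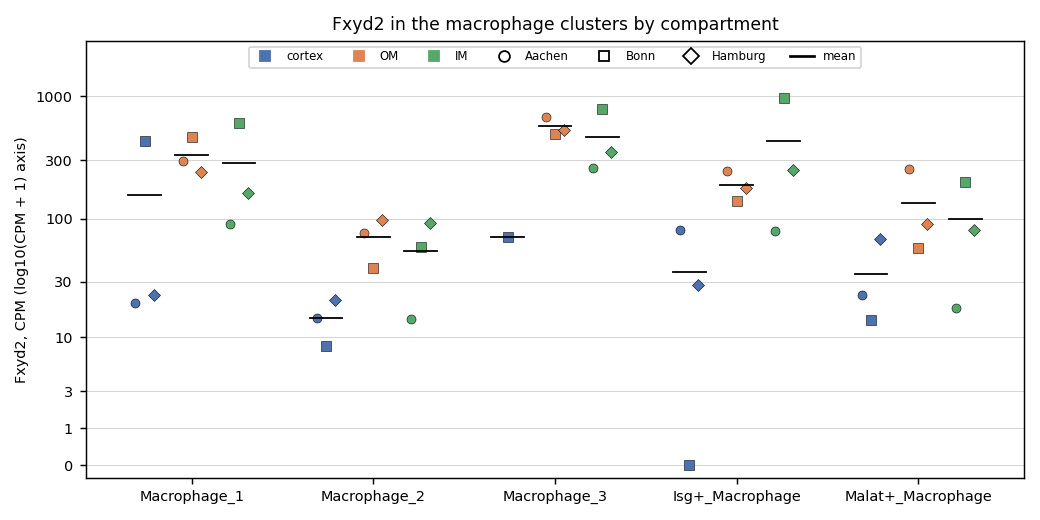
Fxyd2 in the 5 macrophage clusters by compartment, as CPM on a log10(CPM + 1) axis, with 1 symbol per library and bars for the mean of the facilities shown. Macrophage_2 is at 8.3 to 97.5 CPM over all libraries, and Macrophage_3 reaches 260 to 791 CPM in the medulla.

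The make-up of the class differed between compartments as well. Macrophage_3 had 0 cells in the cortex of Aachen and Hamburg and 7.05% of macrophages in the Bonn cortex. It made up 44.7, 42.9 and 23% in the OM of Aachen, Bonn and Hamburg, and 1.17, 43.1 and 15.4% in the IM. Within Macrophage_1, Fxyd2 was 20, 427 and 23.4 CPM in the cortex of Aachen, Bonn and Hamburg, where the Bonn value rests on 24 cells and mostly on the single cell with 39 UMIs. It was 298, 464 and 241 CPM in the OM and 91.1, 598 and 161 CPM in the IM. Within Macrophage_2 it was 14.8, 8.3 and 21.2 CPM in the cortex, 76.3, 39.3 and 97.5 CPM in the OM, and 14.5, 58.1 and 91.3 CPM in the IM. Fitted alone, both clusters had a higher level in the medulla, with log2 fold changes of 1.92 ± 0.34 and 2.25 ± 0.37 (SE), smaller than that of the whole class. In Macrophage_2 of Aachen the IM was not above the cortex. Malat+_Macrophage cells, which were kept out of the class, had 23, 14.2 and 68.3 CPM in the cortex, 253, 57.0 and 90.2 CPM in the OM and 18, 201 and 81.3 CPM in the IM.

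OM and IM of resident macrophages were also compared, a contrast that was not itself used for the choice. The test is still not independent of the choice, which used the level of Fxyd2 in the medulla, made up of OM and IM. Fxyd2 did not differ between them beyond the spread over facilities (log2 fold change 0.56 ± 0.50, edgeR adjusted p = 1). The differences of OM minus IM were 3.32, -1.02 and 0.46 in Aachen, Bonn and Hamburg, so the facilities did not share a direction. Without the Aachen OM library, chosen to be left out after the data were seen, the value was -0.24 ± 0.39.

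Whether Fxyd2 followed the compartment in other cells was asked in T cells (5236 cells), B cells (4358), NK cells (1133), monocytes (714), cDC2 (668) and ILC2 (424), the classes with at least 10 cells in each library. It passed the filter on low counts in T cells, B cells, monocytes and cDC2. In T cells, monocytes and cDC2 only libraries of the medulla reached the level that the filter asks for. The only call was in cDC2, conventional dendritic cells that prime helper T cells. Their levels were 27.4, 6.53 and 0 CPM in the cortex of Aachen, Bonn and Hamburg, 128, 26.1 and 26.7 CPM in the OM, and 37.9, 69.8 and 19.6 CPM in the IM. Each facility was higher in both parts of the medulla than in its own cortex, although the Aachen cortex overlapped with OM and IM of the others. The log2 fold change of medulla against cortex was 2.97 ± 0.58 (SE), with an edgeR adjusted p of 0.0184, and the differences were 1.39, 2.11 and 2.50 in Aachen, Bonn and Hamburg. Of the 4935 genes tested in cDC2, 0.304% were called. Fxyd2 was chosen by its medulla level in macrophages of the same libraries. It passed the filter in cDC2 only through medulla libraries, so this call is no independent evidence of a difference.

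This difference in cDC2 rested on few molecules. Of 668 cDC2, 60 had an Fxyd2 UMI and 13 had 2 or more. The cortex libraries of Aachen, Bonn and Hamburg held 2, 5 and 0 UMIs, and 1 cell gave 25 of the 65 UMIs of the Bonn IM. The adjusted p was 1 with no facility block, 0.217 with DESeq2, 0.139 in cells without tubule UMIs, 0.371 in the 480 cells without a UMI of C1qa, C1qb or C1qc, 0.275 without Hamburg and 0.0517 without the Aachen OM library, with log2 fold changes of 2.42 to 2.93. Without Bonn the gene did not pass the filter. In cells without a C1q UMI, Fxyd2 was 0, 5.18 and 0 CPM in the cortex of Aachen, Bonn and Hamburg. It was 106, 26.6 and 14.9 CPM in the OM and 37.5, 24.5 and 22.3 CPM in the IM. Of the 65 UMIs of the Bonn IM, 17 were in such cells. The part of macrophage RNA was tested only by leaving out the cells with a C1q UMI. In data simulated from resident macrophages and T cells, the fit made somewhat more false calls than the threshold allows. The resident macrophage markers were highest in the cortex in Bonn and Hamburg and in the OM in Aachen, with 1508.1, 1517.4 and 1026.4 CPM in the cortex of cDC2, 1825.1, 208 and 859 CPM in the OM and 1088.2, 762 and 834 CPM in the IM. The tubule markers were 41.1, 19.6 and 23.4 CPM in the cortex, 30.2, 52.1 and 45.9 CPM in the OM and 66.2, 165 and 29.9 CPM in the IM, and their part in the result was tested only by leaving out the cells that carry them.

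In T cells, B cells and monocytes no call was made for Fxyd2, and its fitted change was positive. In T cells and monocytes it passed the filter only through medulla libraries. A positive fitted change there is therefore no independent evidence of a difference. In T cells it was 2.04 ± 0.76 (edgeR adjusted p = 0.72), with 5.62, 0.893 and 1.05 CPM in the cortex of Aachen, Bonn and Hamburg, 45.1, 2.28 and 1.25 CPM in the OM and 8.05, 11.4 and 0.631 CPM in the IM. The Hamburg libraries thus did not show the difference, at -0.08. In B cells it was 1.75 ± 0.64 (adjusted p = 1), with 13.3, 1.53 and 10.0 CPM in the cortex, 54.7, 9.59 and 10.9 CPM in the OM and 5.91, 23.9 and 11.0 CPM in the IM. In monocytes it was 2.18 ± 0.76 (adjusted p = 0.475), where 19 UMIs in 4 of 29 cells made up the 441 CPM of the Aachen OM and the other 8 libraries lay between 2.37 and 33.2 CPM. In that Aachen library 1 monocyte gave 14 of the 19 UMIs, and the 18 monocytes without a UMI of C1qa, C1qb or C1qc held 0. The Hamburg difference of medulla against cortex was 0.04 in B cells and -0.11 in monocytes. The shares called over all genes were 0.0335% in T cells, 0.0898% in B cells, 0.0299% in NK cells, 0.332% in monocytes and 0.359% in ILC2. The change in T cells exceeded that in B cells by 0.68 ± 0.78 on the log2 scale, and this difference was not called (edgeR interaction, adjusted p = 1; 0.02% of genes called).

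The Aachen OM was the highest library for Fxyd2 in T cells, B cells, NK cells, monocytes and cDC2. In that library the T cells had 45.1 CPM of Fxyd2 against 435 in resident macrophages, and 1871.0 CPM of the macrophage markers against 22420.8. In the Hamburg OM the T cells had 1.25 CPM of Fxyd2 and 100 CPM of the macrophage markers. The part of free RNA in the lymphoid values was not tested.

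Fxyd5 was highest in neutrophils and low in B cells. Neutrophils had the highest level, with 4608.3 CPM in Aachen, 2473.1 in Bonn and 2643.6 in Hamburg (3241.7 ± 1186.6 SD, n = 3), above each other cluster in each facility. The Aachen value rests on 15 cells of the IM. Monocytes (1277.3 ± 144), cDC2 (1238.7 ± 84.0), Macrophage_2 (1230.1 ± 214), Macrophage_1 (1153.1 ± 152) and Macrophage_3 (1117.8 ± 163) came next, and their facilities overlapped. NK_cell_1 had 1052.6 ± 40.7 and NK_cell_2 879 ± 43.5 CPM. T_cell_1 to T_cell_4 lay between 731 and 849 CPM, cDC1 at 657, pDC at 479 and ILC2 at 416. B_cell_1 had 171, 200 and 172 CPM, and B_cell_2 130, 87.3 and 56.3 CPM, both lower than every T, NK and macrophage cluster in each facility.

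Across the kidney no difference of Fxyd5 was detected. In resident macrophages it was 1160.8 ± 277 CPM in cortex, 1173.1 ± 180 in OM and 1172.4 ± 143 in IM (SD, n = 3), with a fitted medulla against cortex value of 0.04 ± 0.11. In T cells it was 747 ± 172, 723 ± 201 and 796 ± 104 CPM, and in B cells 174 ± 24.6, 168 ± 16.8 and 184 ± 33.1 CPM. It passed the filter in all 7 classes, with log2 fold changes of -0.31 to 0.11, and was not called in any of the 6 tested outside macrophages. The lowest value was that of ILC2, with 351, 630 and 477 CPM in the cortex of Aachen, Bonn and Hamburg, 294, 483 and 529 CPM in the OM and 226, 367 and 384 CPM in the IM. In each facility the IM was the lowest of the compartments. The medulla value of -0.31 ± 0.16 (edgeR adjusted p = 0.803) and the OM against IM value of 0.47 ± 0.20 (adjusted p = 0.961) were not called.

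The β subunit genes differed in where they were found. Among the named clusters Atp1b1 was highest in plasmacytoid dendritic cells (pDC), the main producers of type I interferon, with 780 CPM in Bonn and 661 in Hamburg. Aachen held too few pDC. NK_cell_1 had 163, 374 and 294 CPM in Aachen, Bonn and Hamburg and NK_cell_2 62.0, 187 and 205 CPM. T_cell_3 had 31.5, 98.2 and 79.4 CPM and B_cell_2 34.7, 90.0 and 98.2 CPM. Macrophage_1, Macrophage_3, Isg+_Macrophage and cDC1 had means of 2.14 to 2.67 CPM. NK cells held 804 and pDC 530 of the 2486.0 Atp1b1 UMIs.

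Atp1b3 was detected more evenly. T_cell_3 had the highest mean, with 195, 556 and 350 CPM in Aachen, Bonn and Hamburg, followed by NK_cell_1 with 178, 454 and 197 CPM, Malat+_T_cell with 187, 276 and 313 CPM and monocytes with 133, 205 and 195 CPM. T_cell_1, T_cell_2 and T_cell_4 had means of 148 to 163 CPM. Macrophage_1, Macrophage_2 and B_cell_1 were low, with 77.7 ± 27.5, 72.1 ± 28.9 and 59.5 ± 16.1 CPM (SD, n = 3). Bonn cells were higher than Aachen cells in most clusters, and the facilities of neighbouring clusters in this order overlapped.

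**Figure D5:**
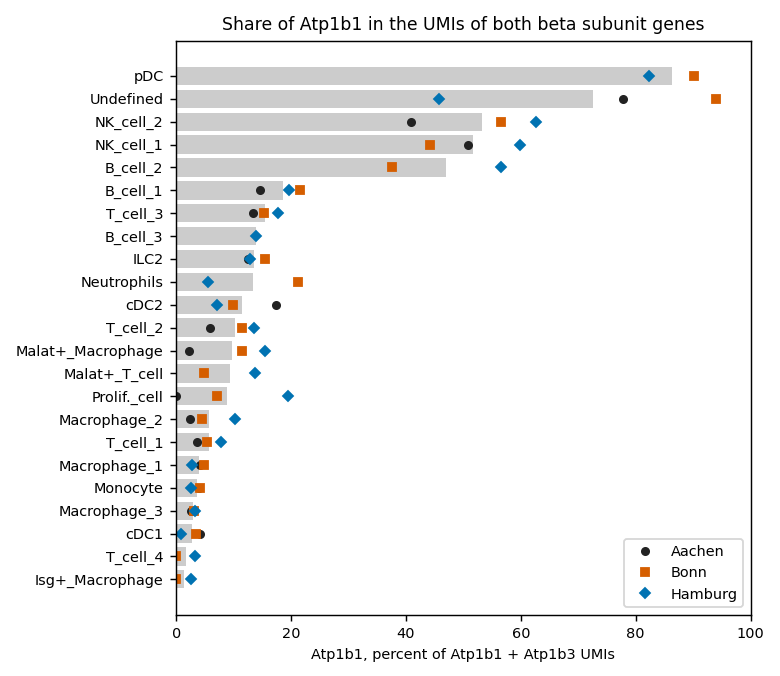
Atp1b1 as percent of the summed Atp1b1 and Atp1b3 UMIs per cluster; bars are the mean of the facilities with at least 10 such UMIs, and points the facilities. pDC stand at 86.3%, the NK clusters at 51.7 and 53.3%, the macrophage clusters at 1.3 to 9.72% and Undefined at 72.5%.

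The share of Atp1b1 in the UMIs of both β genes sets the pair side by side within the same cells. These are UMIs from transcript ends, not divided by gene length, and were compared between clusters, not as amounts of protein. The share was 90.2 and 82.3% in pDC of Bonn and Hamburg. It was 50.8, 44.2 and 59.9% in NK_cell_1 and 40.9, 56.5 and 62.6% in NK_cell_2 of Aachen, Bonn and Hamburg. B_cell_2 had 37.5% in Bonn and 56.5% in Hamburg, against 14.6, 21.5 and 19.7% in B_cell_1. T_cell_3 had 13.3, 15.2 and 17.7% and T_cell_1 3.66, 5.39 and 7.81%. Macrophage_3, monocytes and cDC1 were at 2.99, 3.56 and 2.77%. The NK and B_cell_2 shares did not overlap with those of B_cell_1, the T cell clusters or the macrophages.

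Across the kidney the β genes showed no call. Atp1b1 passed the filter in T, B and NK cells, with log2 fold changes of medulla against cortex of 0.22 to 0.27. In NK cells it had 84.2, 276 and 217 CPM in the cortex of Aachen, Bonn and Hamburg, 125, 236 and 270 CPM in the OM and 160, 331 and 260 CPM in the IM (0.27 ± 0.16, edgeR adjusted p = 1). Atp1b3 passed it in 6 classes, all but ILC2, with values of -0.11 to 0.38. In T cells it had 84.3, 282 and 170 CPM in the cortex, 142, 288 and 228 CPM in the OM and 109, 260 and 252 CPM in the IM. Aachen and Hamburg were higher in the medulla and Bonn was not (0.31 ± 0.13, edgeR adjusted p = 0.815). Over the 14 tests of Fxyd5, Atp1b1 and Atp1b3 outside macrophages edgeR made 0 calls, and 1 had an unadjusted p under 0.05. Over all genes edgeR called 0.0299 to 0.359% in these classes, so 0 calls in so few tests says little about the members. DESeq2 made 0 calls over all 18 tests of the members in these classes, and the share it called over all genes is not given here.

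Between OM and IM, 0 of the 21 tests of members in the 7 classes gave a call by edgeR or by DESeq2, and 1 had an unadjusted p under 0.05 by edgeR. Over all genes edgeR called 0% in resident macrophages and T cells, with 267 and 308 genes at an unadjusted p under 0.05. DESeq2 called 0 and 1 genes there. In the other classes edgeR called 0.0673% in B cells, 0.0299% in NK cells, 0.133% in monocytes, 0.162% in cDC2 and 0.0599% in ILC2. The shares that DESeq2 called in those classes are not given here. With so few genes called, 0 calls in 21 tests says little about the members.

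Other FXYD and β subunit genes were rare. Fxyd1, Fxyd3, Fxyd4, Fxyd7, Atp1b2 and Atp1b4 had 0.9745 to 77.83 UMIs each over all cells, too few to be tested.

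Genes that work with the pump in sodium and potassium transport were followed as a list of 15, including the kinases Wnk1 and Sgk1 and the potassium channels Kcna3, Kcnn4, Kcnk6 and Kcnk13. All 15 passed the filter in at least 1 class. In medulla against cortex, 0 of 46 tests outside macrophages were called by edgeR, with log2 fold changes of -0.53 to 1.46 and a median of 0.10. With 0.0299 to 0.359% of all genes called in these classes, 0 calls says little about the list. The unadjusted p was under 0.05 in 3 of them. They were the potassium channel gene Kcna3 in cDC2 (1.46 ± 0.50, adjusted p = 0.569), Wnk1 in NK cells (0.48 ± 0.18, 0.861) and Sgk1 in monocytes (-0.53 ± 0.22, 0.999). DESeq2 called 0 of the 59 tests with macrophages included. The share it called over all genes is not given here, so this count says little about the list. In resident macrophages, whose values are given as a description only, 13 genes passed the filter. Their lowest value was -1.03 ± 0.30 (SE) for Kcnn4 and their highest 0.34 for Kcnk13.

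The genes whose level ran most like that of each member over the 23 clusters were looked up among 6185 genes with a mean of at least 20 CPM, as a description over points that share libraries and depth. For Fxyd2 they were Cndp2 (Pearson r = 0.895), Tcn2 (0.871) and Alas1 (0.865). Without the cluster Undefined they were Lilra5 (0.886), Fcgr3 (0.882) and Camk1 (0.88), so none of the 3 stayed. For Fxyd5 they were Efhd2 (0.863), Otulinl (0.845) and Rnaset2a (0.844), for Atp1b1 Ubl7 (0.798), Prxl2c (0.761) and Cxxc5 (0.75), and for Atp1b3 Prkch (0.813), Utrn (0.807) and Tcf7 (0.801). Without Undefined, 1 of the 3 stayed for Fxyd5, 0 for Atp1b1 and 1 for Atp1b3. Among the members themselves, Fxyd2 and Atp1b1 had r = -0.0683 over all clusters and -0.596 without Undefined.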

How the data were processed

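The authors sorted CD45+ cells and processed 10x reads with Cell Ranger (mm10) and Seurat, keeping cells of 200 to 4000 genes and at most 20% mitochondrial UMIs. The deposited table holds expected counts (UMIs per cell and gene) that the authors made with Cell Ranger, not scaled to depth, with cluster, compartment and facility. Hamburg values are mostly not whole, and why is not given in the sources used here. Members and lists were chosen with earlier results of these data known. Counts were summed per class and library, rounded, and fitted across all genes passing filterByExpr with edgeR 4.0.16 (R 4.3.3; glmQLFit, glmQLFTest, TMM, Benjamini-Hochberg, threshold 0.05) with facility as a block. Libraries, with each gene's mean over the facilities of the compartment taken off, correlated at 0.724 to 0.956 within a facility (9 pairs). Between facilities they correlated at -0.791 to 0.175 (27 pairs, 3724 genes). Taking off that mean in itself lowers the values between facilities. DESeq2 1.42.0 was an alternative. Differences within a facility are of log2 CPM (prior count 2). Doublets were not called. The fit was tested on data simulated from resident macrophages and T cells, but not from cDC2. Somewhat more calls were false there than the threshold allows. Named are the members, genes of 2 lists (pump family, transport partners; some are not reported here) and the 3 genes most like each member by Pearson r of log2(CPM + 10).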

Additional observations from a re-analysis of the deposited data

Results flagged for a closer look

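For Atp1b3 the facilities' log2 CPM differences of medulla against cortex, with a prior count of 2, were 0.04, 0.15 and 0.18 in NK cells of Aachen, Bonn and Hamburg and -0.10, -0.17 and -0.09 in B cells, a difference of means of 0.24 between classes whose signs were opposite. The sign in Aachen NK cells was not that of the level itself, which was 139 CPM (OM) and 140 CPM (IM) against 144 CPM (cortex). In Bonn NK cells the OM (267 CPM) lay below the cortex (303 CPM) and the IM (418 CPM) above it. The difference between the classes was not tested, and neither class gave a call by edgeR (adjusted p = 1 in both).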

How the results depend on the processing

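Fxyd2 in cDC2, medulla against cortex, kept its direction in each fit made (2.71 to 3.20 without 1 facility) but lost its call with no replicate block (2.93), with DESeq2 (2.91), in cells without tubule UMIs (2.42) and, chosen after seeing the data, without the Aachen OM library (2.78) or in cells without C1q UMIs (2.84). Without Bonn, and in cells thinned to 500 UMIs, it did not pass the filter on low counts. The count of members called outside macrophages, 1, was therefore 2 without a filter on low counts (Fxyd2 in B cells added) and 0 with no replicate block, DESeq2, thinned cells, cells without tubule UMIs or the Aachen OM library left out, and 0 to 1 without 1 facility. Fxyd2 in macrophages, OM against IM, was -0.38 to 1.63 without 1 facility and -0.24 without the Aachen OM library; the cause was not tested. Its medulla value of 3.89 was 1.92 in Macrophage_1 and 2.25 in Macrophage_2 alone, and within 1 SD of the facilities (0.74) otherwise. The replicate block changed no other call. Macrophage_3 alone was not run, having 0 cortex cells in 2 facilities. Genes most like a member changed with Spearman's rho, which kept 0 of 3 for Fxyd2, Fxyd5 and Atp1b3 and 1 of 3 for Atp1b1. Depth limits Fxyd2 outside macrophages: it did not pass the filter in NK cells and ILC2, and in T cells, B cells, monocytes and cDC2 cortex libraries hold 0 to 11.6 UMIs.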
